A study of Mus musculus with 8 samples.

Results

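Of 306466 regions with a peak in at least 1 of 8 CUT&Tag libraries, 7811 (2.55%) held a peak of Nanog and a peak of Oct4 and none of Sox2 or Nr5a2. They were found by joining the peaks of the 8 libraries wherever these overlapped by at least 1 bp. A member needed a peak of at least 1 of the 2 Nanog libraries and of at least 1 of the 2 Oct4 libraries, and no peak of the other 4 libraries. CUT&Tag uses an antibody to bring the transposase Tn5 to a protein on chromatin, so that DNA near bound sites is cut, tagged and sequenced. The cells were mouse embryonic fibroblasts (MEFs) sampled on day 3 of their reprogramming, and the antibody recognised Flag, which tags each delivered factor. Per the study's methods, the MEFs came from embryos with the OG2 reporter, and the factors were delivered with retroviral vectors. The groups were native Nanog, NanogBiD, native Oct4 and Oct4BiD, with native Sox2, Sox2BiD, native Nr5a2 and Nr5a2BiD used to exclude regions. BiD is the N-terminal stretch of SS18 through which SS18 contacts BRG1, the motor subunit of the chromatin remodeller BAF, and it precedes the whole factor in the fusion. With 1 library for each group, none of the values has a replicate of its own and no test between groups was possible. Which further factors the same cells received is not in the titles. The study's file list names these libraries by the tagged factor alone, and lists other Flag libraries, not analysed here, as Nanog or NanogBiD with Oct4. The members were selected on the called peaks of all 8 libraries, so their counts, scores, heights and summit distances describe the choice and are not tested.

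Oct4 is a POU-family factor that binds an octamer of DNA with its paired POU domains, and in embryonic stem cells it often binds beside SOX factors. Nanog is a homeodomain factor that recognises a short motif with a TAAT core on its reverse strand. Both belong to the core network of pluripotency, and both are silent in fibroblasts, whose open enhancers are marked by sites for AP-1, TEAD and RUNX factors. BAF moves and evicts nucleosomes, and a BiD fusion is meant to bring it to the sites of the factor.

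To show the DNA under these regions, the 101 bases centred on the summit of the strongest Oct4 peak are printed for 8 members, read from the plus strand of GRCm38 (mm10). Strength was the smaller of a member's best Nanog and best Oct4 score percentile, each taken within its library. Capitals mark the octamer ATGCAAAT and the NANOG motif GCCATTA, on either strand. Members of 1 autosome and those off the placed chromosomes were left out of this choice. The first 5 were the strongest of the rest with both motifs in that window, which 6 of the 503 with an octamer there had. The last 3 were the strongest of the rest with an octamer and no NANOG motif there.
Efnb2: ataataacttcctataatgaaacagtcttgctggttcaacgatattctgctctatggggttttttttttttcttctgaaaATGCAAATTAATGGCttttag
Cxcl12: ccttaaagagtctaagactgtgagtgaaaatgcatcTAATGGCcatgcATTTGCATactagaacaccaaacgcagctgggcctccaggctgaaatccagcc
Adam7: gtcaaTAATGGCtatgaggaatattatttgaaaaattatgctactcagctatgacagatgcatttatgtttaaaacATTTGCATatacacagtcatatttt
Tbc1d21: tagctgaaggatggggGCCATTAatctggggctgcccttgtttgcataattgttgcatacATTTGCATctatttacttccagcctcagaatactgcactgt
Sgms1: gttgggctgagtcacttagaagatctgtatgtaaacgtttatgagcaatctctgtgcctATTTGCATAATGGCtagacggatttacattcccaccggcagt
Adgrl3: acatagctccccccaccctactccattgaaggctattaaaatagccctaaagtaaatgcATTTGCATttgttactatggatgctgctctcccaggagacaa
Adamtsl1: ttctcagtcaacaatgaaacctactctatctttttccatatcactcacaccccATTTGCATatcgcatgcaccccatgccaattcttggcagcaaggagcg
Epha5: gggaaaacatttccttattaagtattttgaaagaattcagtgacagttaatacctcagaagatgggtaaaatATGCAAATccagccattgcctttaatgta

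The names are those of the nearest protein-coding start site, which was not always close. The window near Efnb2 (chr8:8309041-8309141) lay 330 kb from that start site, in an intron of a non-coding gene. Its octamer and NANOG motif stood end to end. In the window in an intron of Sgms1 (chr19:32295729-32295829) the motifs shared 1 base. Those near Cxcl12 (chr6:117160080-117160180), Adam7 (chr14:68389530-68389630) and Tbc1d21 (chr9:58355414-58355514) were intergenic and held the motifs apart. The windows in introns of Adgrl3 (chr5:81061502-81061602) and Adamtsl1 (chr4:86335841-86335941) and in a non-coding exon within Epha5 (chr5:84360133-84360233) held the octamer alone. Peaks of these last 3 were strong, with Oct4BiD scores of 865, 816 and 675 and NanogBiD scores of 888, 754 and 796. Peaks of the 5 with both motifs were mostly weak: their NanogBiD scores were 91.0 near Efnb2, 140 near Cxcl12, 68.1 near Tbc1d21 and 65.1 in Sgms1, with no NanogBiD peak near Adam7. The Sgms1 window had the highest Oct4BiD score of the 5, 612 against 101 to 237 in the other windows. The 5 came from only 6 members with both motifs, while the last 3 were the strongest of the others among the 503. The contrast in scores describes this choice and shows no link between the motifs and strength. The score of a peak is 10 times the negative log10 of its p-value, and the lowest possible score was 50.

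Members were a minor share of the places where Nanog and Oct4 peaks met. In all, 34178 regions (11.2% of 306466) held peaks of both factors, and 22.9% of these were free of Sox2 and Nr5a2 peaks. A Sox2 peak without Nr5a2 was present in 7834, an Nr5a2 peak without Sox2 in 4419, and both in 14114. Members had a median width of 1164 bp (367 to 6866 bp), against 862 bp over all regions. The edge of the rule was soft: in 1513 members (19.4%) the best Nanog or best Oct4 score lay under 60, and 808 regions with both factors (3.06% of the excluded) were left out by Sox2 or Nr5a2 peaks that all scored under 60. A Sox2 or Nr5a2 peak lay within 1 kb of 2024 members (25.9%) and within 10 kb of 6908 (88.4%), at a median distance of 2437 bp. In 203 members (2.60%) no Nanog peak overlapped an Oct4 peak by 100 bp or more, while the median overlap was 631 bp. The number of members depended on the libraries used, and the same rule without Oct4BiD gave 4292.

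The forms of the factors were combined in 9 ways. All 4 libraries had a peak in 1789 members (22.9%), the most frequent combination. Both Nanog forms with Oct4BiD alone made up 1662 members (21.3%), and NanogBiD alone with Oct4BiD alone 1207 (15.5%). Native forms alone made up 375 members (4.80%). The rarest combination was NanogBiD with native Oct4 alone, at 131 members (1.68%), while native Nanog with Oct4BiD alone had 646. Summed over Oct4, Nanog was present as the native form alone in 1819 members, as BiD alone in 1994 and as both in 3998. The Oct4 forms were less even, with 1053 native alone, 3515 BiD alone and 3243 both. Oct4BiD had more peaks in all (93978) than native Oct4 (54794), and the numbers of members follow from which peaks were called, so these counts are a description.

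**Figure D1:**
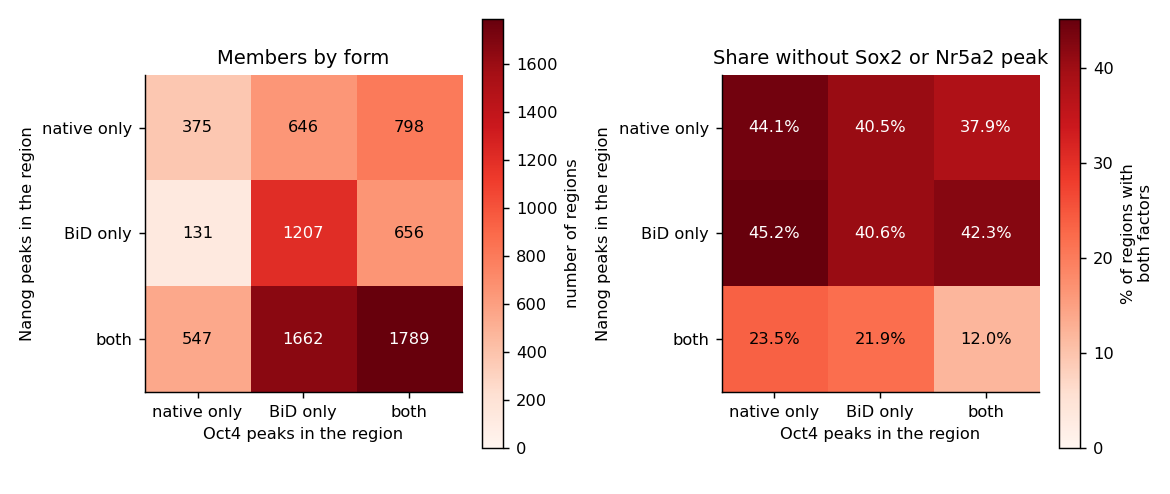
Left, the number of members for each combination of Nanog peaks (rows) and Oct4 peaks (columns), from 131 to 1789. Right, the members as a share of all regions with that combination, whatever other factors were present; the share was 12.0% where all 4 libraries had peaks and 37.9% to 45.2% where Nanog was present in 1 form.

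Regions in which all 4 Nanog and Oct4 libraries had peaks were usually shared with other factors. Of 14886 such regions 12.0% were members, against 44.1% of 850 regions with native forms alone and 40.6% of 2976 with BiD forms alone. Members with all 4 libraries were wider (median 1425 bp) than those with native forms alone (822 bp) or BiD forms alone (996 bp). A wider region has more room to meet a Sox2 or Nr5a2 peak, and the part of width in these shares was not tested.

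Peak strength in the members was ordinary for each library. The median score of native Nanog peaks was 113 in members and 126 over the library, and that of NanogBiD peaks 126 and 138. For Oct4 the order was the reverse, with 114 in members and 106 over the library for native Oct4, and 142 and 135 for Oct4BiD. In percentiles of the library's own scores, the median member peak stood at 45 for native Nanog, 45.9 for NanogBiD, 54.4 for native Oct4 and 52.1 for Oct4BiD. Between 7.29% (Oct4BiD) and 8.02% (native Nanog) of each library's peaks lay in members. Median summit heights in members were 15 tags for native Nanog, 18 for NanogBiD, 17.0 for native Oct4 and 19 for Oct4BiD. These heights are not scaled to sequencing depth. The study lists read pairs per library, which were not used here.

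Peaks were higher where the other form of the same factor was also called. Native Oct4 peaks had a median score of 136 in members with both Oct4 forms and 77.2 in members with native Oct4 alone. Oct4BiD peaks had 215 and 106 in the same split. Native Nanog peaks had 142 and 79.6, and NanogBiD peaks 158 and 86.4. The form of the other factor went with smaller differences, such as 101 for native Nanog peaks beside Oct4BiD alone and 125 beside native Oct4 alone. Calls were made on these same scores, so the split is a description.

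Within members, Nanog and Oct4 summits did not fall on the same base pairs as closely as the forms of 1 factor did. The nearest summits of native Nanog and NanogBiD were a median of 48.0 bp apart (quartiles 17.0 and 107, 3998 members). Those of native Oct4 and Oct4BiD were 45 bp apart (15 and 101, 3243 members). Native Nanog and native Oct4 summits were 105 bp apart (40.0 and 274, 3509 members), and NanogBiD and Oct4BiD summits 142 bp (54 and 389, 5314 members). The order held in the 1789 members with all 4 libraries, where the medians were 48.0 bp for the Nanog forms and 44.0 bp for the Oct4 forms, against 112 to 133 bp for the 4 pairs across factors. Taking the nearest summits of either form, Nanog and Oct4 were within 100 bp in 3985 members (51.0%) and over 500 bp apart in 1066 (13.6%).

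**Figure D2:**
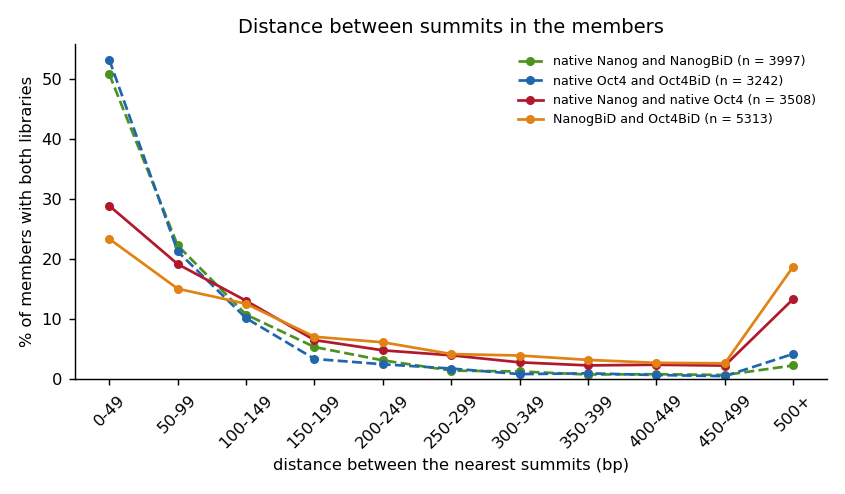
Distance in bp between the nearest summits of a pair of libraries (horizontal axis, bins of 50 bp) against the share of members with both libraries (vertical axis, %). Pairs of forms of 1 factor (dashed) have 50.8% and 53.2% of members in the first bin, pairs across factors (solid) 28.9% and 23.4%. Members off the placed chromosomes are left out.

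In all, 9 DNA motifs were searched on both strands within 50 bp of each summit, and in windows of the same length centred 500 bp to either side. They were the octamer ATGCAAAT, its variants ATGCTAAT and ATGCATAT, NANOG (GCCATTA), SOX (CCATTGTT), NR5A (TCAAGGTCA, TCAAGGCCA, CCAAGGTCA and CCAAGGCCA), AP-1 (TGACTCA), TEAD (CATTCCA and CATTCCT), RUNX (AACCACA) and the CTCF consensus. A NANOG match and an octamer can share an end base, as in the Sgms1 window. A match is only these letters, not a shown binding site. All intervals are 95% intervals for counting error over the peaks of 1 library and hold nothing of the spread between cultures.

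The octamer stood at Oct4 summits in the members, more often for the fusion than for native Oct4. It was within 50 bp of 548 of 6850 Oct4BiD summits, 8.0% (7.37 to 8.67, exact), against 0.526% in the windows 500 bp away. At native Oct4 summits it was present in 205 of 4345, 4.72% (4.11 to 5.39), against 0.656% in the side windows. Over all peaks of these libraries the shares were 9.72% and 4.17%. The variants were found at 8.07% of Oct4BiD summits and 5.85% of native Oct4 summits in members, against 0.883% and 1.15% to the sides. Counted by region, 607 of 7810 members (7.77%) had an octamer at an Oct4 summit of either form, and 1219 (15.6%) an octamer or a variant.

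Regions with Oct4 peaks and no other factor (56792) were set beside them. There the octamer was at 12.2% of Oct4BiD summits, so that members had 0.655 times that share (0.603 to 0.713). For native Oct4 the share was 4.86% and the ratio 0.970 (0.840 to 1.12), an interval that includes 1. The variants were less frequent in members for both forms of Oct4, at 0.624 times (0.574 to 0.678) for Oct4BiD and 0.522 times (0.461 to 0.591) for native Oct4. Repeats differed as well. At Oct4 summits of members 16.5% (native Oct4) and 15.5% (Oct4BiD) of bases were repeat-masked. At the strongest summit of each region, of either factor in members, the values were 13.5% in members and 26.0% with Oct4 alone. Where no base of the window was masked, the octamer share at Oct4BiD summits was 7.77% in members and 13.6% with Oct4 alone. For the variants at native Oct4 summits the shares were then 3.55% and 6.47%, while windows masked by 50% or more had 14.0% and 18.7%.

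**Figure D3:**
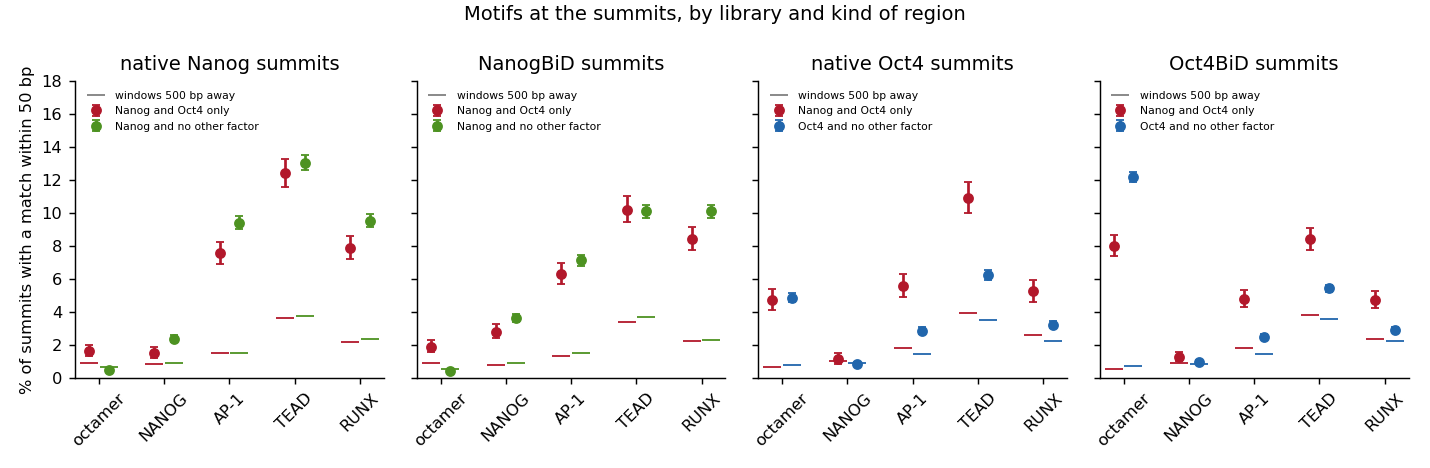
Share of summits (vertical axis, %) with a match of 5 motifs (horizontal axis) within 50 bp, in the 4 libraries. Red points are members, green and blue points are regions of Nanog or Oct4 with no other factor, bars are exact 95% intervals for counting error, and short dashes are the windows 500 bp away. Oct4BiD summits show the octamer at 8.0% in members and 12.2% with Oct4 alone.

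At native Oct4 summits of similar score, the octamer share differed between members with and without Oct4BiD. In members with both Oct4 forms 5.93% of native Oct4 summits had it, while in members with native Oct4 and no Oct4BiD it was at 10 of 1057, 0.946% (0.455 to 1.73). In the lowest of 4 score bins of native Oct4, each holding 25% of the library's peaks, the shares were 5.39% (28 of 519) and 1.42% (6 of 422), and in the next bin 4.78% (34 of 712) and 0 of 342, which allows up to 1.07%. Regions with Oct4 alone had the same order, 6.44% with both forms and 2.13% with native Oct4 only. The gap was smaller for the variants, at 6.51% and 3.78% (2.72 to 5.12) in members and 12.2% and 9.52% with Oct4 alone. In the lowest bin the variants were at 6.74% and 2.84% in members, and in the next bin at 5.06% and 4.68%. For Oct4BiD summits the order of the octamer shares was the other way at similar scores. Those without a native Oct4 peak had higher shares than those with one in each of the 4 bins, at 4.16% and 3.16% in the lowest bin, 5.89% and 3.61% in the next, 11.2% (9.18 to 13.5) and 6.46% (4.92 to 8.31) in the one after and 15.6% and 12.8% in the highest. Only in that bin next to the highest did the intervals not overlap. Pooled over scores, which were lower without a native Oct4 peak, the shares were 7.77% and 8.25%, and in regions with Oct4 alone 13.8% and 8.96%. The variants did not keep this order. In members without and with a native Oct4 peak they were at 5.40% and 8.03% in the lowest bin and 7.60% and 7.38% in the next. In the one after they were at 8.53% and 6.69%, and in the highest at 11.9% and 10.4%. Pooled, their shares were 7.60% and 8.58%, and with Oct4 alone 11.6% and 15.7%. Among Oct4BiD summits in members the octamer share went from 3.90% in the lowest bin of scores to 13.5% in the highest. In the lowest bin members had 0.397 times (0.310 to 0.509) the share of regions with Oct4 alone, and in the highest bin 0.794 times (0.702 to 0.899). For native Oct4 each of the 4 bins had a ratio whose interval included 1.

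**Figure D4:**
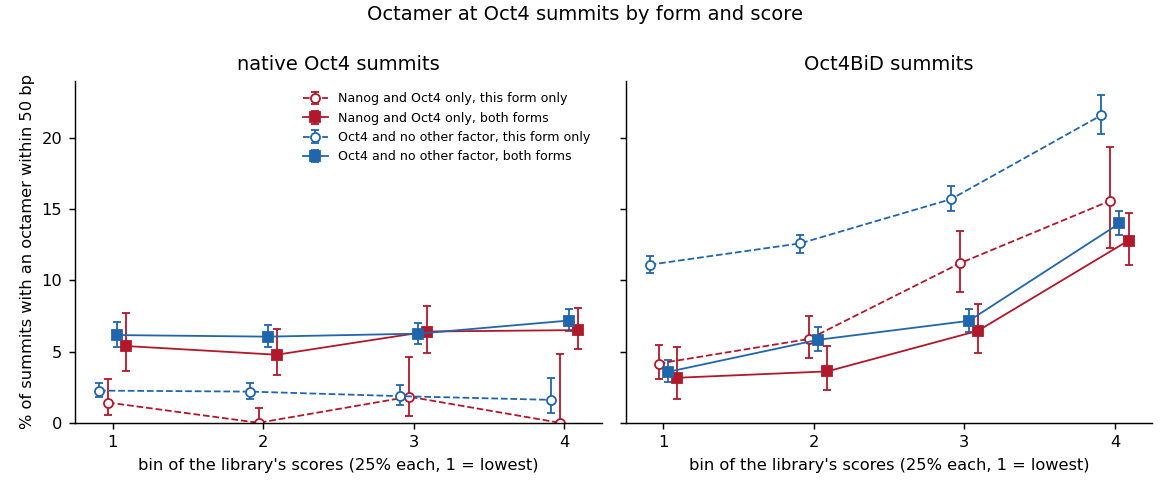
Share of Oct4 summits with an octamer within 50 bp (vertical axis, %) by bin of the library's scores (horizontal axis, 4 bins of 25% of the peaks, 1 is lowest), for native Oct4 (left) and Oct4BiD (right). Open circles are regions with that Oct4 form only, squares regions with both forms, red the members, blue the regions with Oct4 alone, and bars exact 95% intervals for counting error. Native Oct4 summits without Oct4BiD stay at or below 1.83% in members.

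Nanog summits of the same members carried the octamer too, at low shares. It was within 50 bp of 96 of 5889 native Nanog summits, 1.63% (1.32 to 1.99), and of 115 of 6050 NanogBiD summits, 1.90% (1.57 to 2.28). The side windows had 0.891% and 0.893%. In regions with Nanog and no other factor the shares were 0.465% and 0.385%, and in regions of Nanog and Sox2 only 0.354% and 0.322%. The members had 3.51 times (2.64 to 4.66) and 4.94 times (3.75 to 6.51) the share with Nanog alone, a group that by its rule holds no Oct4 peak. In the 5313 placed members with both fusions, the octamer was at the strongest Oct4BiD summit of 423 and at the strongest NanogBiD summit of 110, and 70 had it at both. Where an Oct4BiD summit had an octamer, the nearest NanogBiD summit was a median of 202 bp from that summit, against 138 bp in members without. Between native Oct4 and NanogBiD summits the same medians were 129 and 132 bp. From the octamer itself to the NanogBiD summit the median was 206 bp, and in 74 of 428 such members (17.3%) it was within 50 bp.

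The NANOG motif was less frequent in members than where Nanog stood alone. It was at 88 of 5889 native Nanog summits, 1.49% (1.20 to 1.84), and at 169 of 6050 NanogBiD summits, 2.79% (2.39 to 3.24), with 0.866% and 0.760% in the side windows. All peaks of these libraries had 1.70% and 2.55%. With Nanog alone the shares were 2.37% and 3.64%, so that members had 0.629 times (0.502 to 0.789) and 0.767 times (0.652 to 0.903) that share. Against regions of Nanog and Sox2 only the ratios were 0.844 (0.659 to 1.08) and 1.17 (0.968 to 1.42), whose intervals include 1. Native Nanog summits had the motif in 1.82% (74 of 4059) of members with both Nanog forms and in 0.765% (14 of 1830) of those with native Nanog alone. For NanogBiD these shares were 2.62% with both forms and 3.15% with NanogBiD alone. At Oct4BiD summits the motif was at 1.27% against 0.876% in the side windows, 1.45 times (1.10 to 1.91), and had 1.29 times (1.03 to 1.62) the share with Oct4 alone. At native Oct4 summits it was at 1.13% against 1.0%, with an interval of the ratio (0.795 to 1.60) that includes 1.

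Motifs of factors that fibroblasts already have were the most frequent of those searched at Nanog summits in the members, as they were over all peaks of the Nanog libraries. TEAD motifs, the sites of the partners of YAP, were found in native Nanog at 12.4% of summits (11.6 to 13.3) and in NanogBiD at 10.2% (9.43 to 11), against 3.63% and 3.41% to the sides. RUNX motifs were at 7.90% and 8.41%, against 2.15% and 2.21%. AP-1 motifs, the sites of FOS and JUN dimers, were at 7.56% and 6.31%, against 1.53% and 1.3%. Over all peaks of native Nanog and NanogBiD the shares were 11.3% and 9.51% for TEAD, 7.59% and 7.97% for RUNX, and 10.2% and 8.65% for AP-1. AP-1 was less frequent than with Nanog alone (9.41% and 7.13%) and than in regions of Nanog and Sox2 only, with ratios to the latter of 0.551 (0.498 to 0.609) and 0.521 (0.467 to 0.581). RUNX was also less frequent than with Nanog alone, with ratios of 0.828 (0.752 to 0.913) for native Nanog and 0.833 (0.760 to 0.913) for NanogBiD. TEAD shares were close to those with Nanog alone, 12.4% and 13.0% for native Nanog with a ratio of 0.951 (0.881 to 1.03).

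At Oct4 summits these motifs were more frequent in members than where Oct4 stood alone. AP-1 was at 5.57% of native Oct4 summits and 4.80% of Oct4BiD summits, which is 1.95 times (1.69 to 2.25) and 1.93 times (1.71 to 2.17) the shares with Oct4 alone. TEAD was at 10.9% and 8.42%, ratios of 1.75 (1.59 to 1.93) and 1.55 (1.43 to 1.69). RUNX was at 5.25% and 4.72%, ratios of 1.63 (1.41 to 1.89) and 1.62 (1.44 to 1.82). Over all peaks of native Oct4 the shares were 4.56% for AP-1, 7.44% for TEAD and 3.58% for RUNX. Over all Oct4BiD peaks they were 3.61%, 5.95% and 3.15%, so members were nearer to the whole libraries than to Oct4 alone. Regions with Oct4 alone hold no Nanog peak by their rule. CTCF, the insulator protein, had its consensus at 30 of 6850 Oct4BiD summits (0.438%) and 5 of 4345 native Oct4 summits (0.115%), against 0.387% and 0.179% over all peaks of these libraries. SOX and NR5A motifs, those of the excluded factors, were at 0.0679% to 0.414% of the summits of each library, below the 0.399% to 0.810% in the side windows. For native Oct4 the intervals of these ratios to the side windows, 0.311 to 1.20 for SOX and 0.360 to 1.03 for NR5A, included 1. Over all peaks of each library the ratios were 0.468 to 0.597 for NR5A and 0.649 to 1.06 for SOX. The rule leaves out regions with Sox2 or Nr5a2 peaks, and its part in the low shares of members was not tested.

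**Figure D5:**
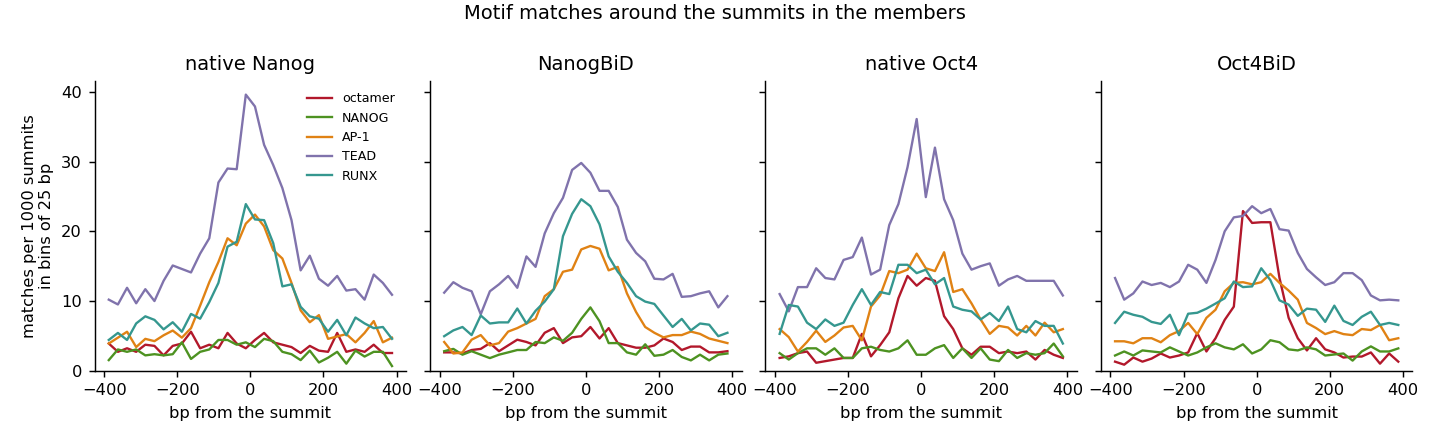
Matches of 5 motifs per 1000 summits in bins of 25 bp (vertical axis) against distance from the summit in bp (horizontal axis), in the members, for the 4 libraries. TEAD matches peak at native Nanog summits, at 39.6 per 1000 in the bin just before the summit, and the octamer at Oct4BiD summits, at 21.2 to 22.9 per 1000 in the 4 bins around the summit.

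The share of members with fibroblast motifs at a Nanog summit had overlapping intervals with and without an octamer at an Oct4 summit. AP-1, TEAD or RUNX motifs were at a Nanog summit of 31.1% (27.5 to 35.0) of the 607 members with an octamer and of 28.9% (27.9 to 30) of the 7203 without. A NANOG motif was at a Nanog summit of 15 of the 607 (2.47%) and 191 of the 7203 (2.65%). In 3754 members (48.1%) none of the 9 motifs was within 50 bp of a Nanog or Oct4 summit. By form, fibroblast motifs were at a Nanog summit of 43.7% of the 547 members with both Nanog forms and native Oct4 alone. They were at 18.3% of the 1207 with BiD forms alone and 24% of the 375 with native forms alone. A member with both Nanog forms has at least 2 Nanog summits in which a match can fall, and one with a single form may have only 1.

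Most members lay more than 2 kb from genes' starts, as did most of the genome. Of chromosomes 1 to 19 and X, 10.9% lay within 2 kb of an annotated start site. The strongest summit was within 2 kb of an annotated start site in 1013 of 7810 members, 13.0% (12.2 to 13.7), against 14.7% of all regions. The share was higher than with Nanog alone (10.6%, ratio 1.23, 1.15 to 1.31) and with Oct4 alone (10.3%, ratio 1.27, 1.19 to 1.35). Introns of any gene held 51.1% of the summits, intergenic sequence 43.5% and coding exons 0.807%. The median distance to the nearest protein-coding start site was 33.7 kb. Among the forms, 16.2% of members with NanogBiD alone were near a start site, 13.5% of those with both Nanog forms and 8.30% of those with native Nanog alone. For Oct4 the same order was 15.8%, 11.1% and 9.31%. The extremes were 17.7% (15.6 to 20) with BiD forms alone and 6.40% (4.14 to 9.37) with native forms alone. The direction was not particular to members. With Nanog alone, 2616 of 22870 NanogBiD and 1876 of 19794 native Nanog summits were near a start site. With Oct4 alone, 5069 of 47894 Oct4BiD and 2237 of 24452 native Oct4 summits were. Members made up 2.15% to 2.91% of the regions of each autosome and 2.43% of those of the X chromosome.

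The 10 strongest members with all 4 libraries stood at strengths of 97.7 to 99.6, and 8 of them lay in introns. The first was in Adgrl3, which encodes a latrophilin adhesion receptor (chr5:81060790-81062741). It scored 461 for native Nanog, 888 for NanogBiD, 648 for native Oct4 and 865 for Oct4BiD. Its nearest Nanog and Oct4 summits of any forms were 1 bp apart. The strongest Nanog summit lay 42 bp from the Oct4BiD summit on which the octamer-bearing stretch printed above is centred. In this region both fusions scored above their native forms. In percentiles of each library's own scores it stood at 95.4, 99.7, 99.3 and 99.6 in the same order. Scores, here and below, are not scaled between libraries.

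The second member, 109 kb from Arrdc4 (chr7:68857328-68859606), had scores of 487, 763, 983 and 965 in the same order of libraries. It had an AP-1 motif at a Nanog summit, and its nearest Nanog and Oct4 summits of any forms coincided. The third, in an intron of Slc2a13, a proton and myo-inositol transporter (chr15:91455944-91458052), scored 925, 628, 572 and 664 and had NANOG motifs at both kinds of summit. It was the only one of the 10 with a NANOG motif at a Nanog summit, and there native Nanog was the higher form. The member 0.591 kb from a start site of Zfhx3, a homeobox and zinc-finger factor (chr8:107942573-107943720), scored 72.4 for native Nanog against 741 for NanogBiD, and 120 for native Oct4 against 713 for Oct4BiD. This was the widest gap between forms among the 10, and a Sox2 or Nr5a2 peak lay 57 bp away.

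The others were near Lrrc8c, Nmnat3, Mthfd1l, Dmrt2, Epha5 and Pde4d. The member in Nmnat3, an enzyme of NAD synthesis (chr9:98337096-98339328), was even across libraries, with scores of 700, 773, 546 and 566. That in Mthfd1l, a mitochondrial folate enzyme (chr10:4005076-4007173), scored 598, 599, 392 and 904. The member in Pde4d, a cAMP phosphodiesterase (chr13:108913925-108915652), scored 633, 862, 258 and 636. Of the 10, 2 had an octamer at an Oct4 summit, 4 an AP-1, TEAD or RUNX motif at a Nanog summit, and 4 had Nanog and Oct4 summits within 100 bp. Over all members with peaks of all 4 libraries, the shares for these motifs were 9.23% and 36.1%.

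Strength takes the best percentile over the forms present, and 375 members had native forms alone against 1789 with all 4 libraries. Strengths are therefore not comparable between these groups. With native forms alone, the 5 strongest had strengths of 80.6 to 82.7. The strongest, 7.52 kb from Pi15, a peptidase inhibitor gene (chr1:17593960-17595028), scored 275 for native Nanog and 353 for native Oct4. The member 3.48 kb from Dpt, which encodes the matrix protein dermatopontin (chr1:164792488-164794331), scored 412 and 213. The other 3 were nearest to Lcorl, Dcc and Spef2. None of the 5 had an octamer at an Oct4 summit or an AP-1, TEAD or RUNX motif at a Nanog summit.

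With BiD forms alone, the 5 strongest had strengths of 83.8 to 95.7. The first, 7.93 kb from Tomm7, a subunit of the mitochondrial import channel (chr5:23835522-23837554), scored 531 for NanogBiD and 559 for Oct4BiD. The member in an untranslated exon of Caprin1, 5.0 kb from Nat10 (chr2:103765573-103767091), scored 469 and 373. The member in Smad5, a transducer of BMP signals (chr13:56719964-56721533), scored 355 and 418. Those near Tcf12 and in Pced1b scored 329 and 326 for NanogBiD and 330 and 473 for Oct4BiD. None of the 5 had an octamer at an Oct4 summit, and 2 had an AP-1 motif at a Nanog summit. Over all 1207 members with BiD forms alone, 8.53% had such an octamer. There 18.3% had an AP-1, TEAD or RUNX motif at a Nanog summit, so counts among 5 set these regions apart in neither motif.

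A member lay within 100 kb of a start site of 9658 of 21911 protein-coding genes (44.1%). Of 39 pluripotency genes 14 had one (35.9%), of 40 fibroblast genes 26 (65.0%) and of 26 genes of BAF subunits 14 (53.8%). The lists are short, and the differences of their shares from 44.1% were not tested. Nearness does not show which gene a region acts on, and the lists differ in gene size and density, whose part was not tested.

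Among pluripotency genes, the strongest member was 46.9 kb from Klf4, a zinc-finger reprogramming factor. It scored 412 for native Nanog, 254 for NanogBiD, 383 for native Oct4 and 74.7 for Oct4BiD, so native forms were the higher here. The member 1.27 kb from a start site of L1td1, an RNA-binding protein of embryonic stem cells, was the opposite: 52 for native Nanog, 266 for NanogBiD, no native Oct4 peak and 560 for Oct4BiD, with an octamer at the summits of both factors. The member 51.0 kb from Zfp42, the gene of the stem cell marker REX1, had an octamer as well and scored 54.7 for native Nanog, 237 for native Oct4 and 446 for Oct4BiD, with no NanogBiD peak. Those were the only 2 of the 13 pluripotency regions with an octamer at an Oct4 summit, which 7.77% of all members had. Members near Prdm14 and Tdgf1 had strengths of 71.2 and 65.3. Those near Tet1, Lin28b, Sox15, Nr5a2, Klf2, Tfcp2l1 and Sox2 had strengths of 0.281 (Sox2) to 40.5 (Tet1).

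The member at Nanog itself (chr6:122712911-122713819), which was also the strongest within 100 kb of Dppa3, lay on a coding exon. It scored 506 for native Nanog, 414 for NanogBiD and 164 for Oct4BiD, with no native Oct4 peak. The delivered Nanog vectors carry the coding sequence, and reads from a vector and from this exon cannot be told apart in the peak lists. No member lay within 100 kb of Pou5f1, the gene of Oct4.

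Fibroblast genes had their strongest member 59.1 kb from Tgfbr2, a receptor of TGF-beta. It scored 268 for native Nanog, 209 for NanogBiD, 948 for native Oct4 and 811 for Oct4BiD, so Oct4 peaks were the higher in both forms. The member 91.0 kb from Twist1, a mesenchymal bHLH factor, lay in an untranslated exon within Hdac9. It scored 215 for native Nanog, 242 for native Oct4 and 533 for Oct4BiD, with no NanogBiD peak. That 20.5 kb from Col1a2, a chain of type I collagen, scored 159, 193, 96.2 and 233 in the 4 libraries. The other 12 regions named by the rule were near Runx2, Cdh2, Col5a1, Fos, Fbn1, Fosl1, Fosl2, Dab2, Zeb1, Zeb2, Vim and Tgfb2, with strengths of 45.1 to 63.5. None of the 15 fibroblast regions had an octamer at an Oct4 summit, and 4 had an AP-1, TEAD or RUNX motif at a Nanog summit. Over all members these shares were 7.77% and 29.1%.

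Near BAF genes, the strongest member was intergenic and 64.5 kb from Smarcb1, which encodes a core subunit, with Mif as the nearest protein-coding gene. It had scores of 62.0 for native Nanog, 174 for NanogBiD, 397 for native Oct4 and 651 for Oct4BiD and an octamer at an Oct4 summit. The highest Oct4 scores on this list were in the member 83.5 kb from Smarcd1, at 737 for native Oct4 and 1011 for Oct4BiD, against 77.8 for NanogBiD and no native Nanog peak. Its nearest protein-coding gene was Racgap1. The member 0.0180 kb from a start site of Smarcc2 was at the edge of the rule, with scores of 53.5 for native Nanog and 64.0 for Oct4BiD and an excluded peak 67 bp away. Regions near Actl6a, Smarcc1, Dpf1, Smarce1, Bcl7a, Dpf2, Smarcd3, Phf10, Smarca4, Ss18 and Arid1b had strengths of 5.70 to 52.1.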

How the data were processed

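Reads were processed by the authors. The study's methods name Trim Galore 0.6.4 for trimming, Bowtie2 2.4.5 for alignment to mm10, SAMtools 1.16.1 for removal of repetitive, mitochondrial and low-quality reads (mapping quality under 30) and MACS 1.4.2 for peaks, with duplicates reduced to 1 tag per position, no model of tag shift and a fixed shift of 25 bp. The methods mention merging of replicates before calling, while the study's reporting form states that the CUT&Tag was done once without biological replication, and no control library is named. The score that the authors deposited for a peak is the negative log10 of its MACS p-value multiplied by 10, and the threshold was 1e-05. Summit heights were deposited as signal in whole tags and are not scaled to depth. Read pairs per library are listed by the study and were not used here.

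Peaks of all libraries were merged at 1 bp of overlap. Sequence came from GRCm38, soft-masked, and genes from GENCODE M21. No peak passed a chromosome end, and 110 of 661009 peaks, with 1 member, lay off the placed chromosomes and were left out of sequence and position counts. Members on chromosome 18 were left out of the choice of printed windows. Shares have exact (Clopper-Pearson) 95% intervals and ratios of shares 95% intervals from counts on the log scale. Both cover counting error only. Python 3.11.15, NumPy 2.4.6, pandas 2.3.3, SciPy 1.17.1 and matplotlib 3.10.9 were used, and merging, motif search and intervals were tested on simulated data.

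Regions were named by rule: by strength, the 10 strongest with all 4 libraries, the 5 strongest with native forms alone and with BiD forms alone, and the strongest within 100 kb of each gene of 3 lists (at most 15 genes a list). The members, lists, motifs and rule were chosen with earlier results of these data known. The splits of motif shares by form and score, by repeats and by co-occurrence were added after other values had been seen.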

Additional observations from a re-analysis of the deposited data

Results flagged for a closer look

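For 3 of 9 measures in the members the difference between the BiD and the native library had opposite signs for Nanog and for Oct4. With 1 library per group these differences were not tested, and many are small. The RUNX motif share at summits was 0.517 percentage points higher for NanogBiD than for native Nanog (8.41% and 7.90%) and fell by 0.532 points from native Oct4 to Oct4BiD (5.25% and 4.72%). The median percentile of the score within the library was 0.922 higher for NanogBiD than for native Nanog (45.9 and 45), and the difference between Oct4BiD and native Oct4 was -2.28 (52.1 and 54.4). The repeat-masked share of bases at summits was 0.924 percentage points higher for NanogBiD (10.4% and 9.50%), and the difference between Oct4BiD and native Oct4 was -0.983 (15.5% and 16.5%).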

How the results depend on the processing

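No paired analysis was possible because each group had 1 library and no result comes from a test. The number of members was 5007 with scores of at least 100, 2603 with the 20000 highest peaks of each library, and 3985 with summits within 100 bp. Under these 3 settings the octamer share at Oct4BiD summits was 8.73%, 9.31% and 6.23%. The median distance between Nanog and Oct4 summits was 105, 82.0 and 27.5 bp. The promoter share was 16.2% at scores of at least 100 and 26.2% for the 20000 highest peaks. The octamer share at native Oct4 summits was 4.04% with summits within 100 bp. With peaks overlapping by 50% of the shorter the median distance was 80.0 bp, and with no Sox2 or Nr5a2 peak within 1 kb the promoter share was 11.8%. A promoter distance of 500 bp gave 5.69%. Motif windows of 25 and 100 bp gave octamer shares of 2.19% and 7.53% at native Oct4 summits and 3.62% and 11.5% at Oct4BiD summits. They gave NANOG motif shares of 0.662% and 3.07% at native Nanog summits and 1.5% and 4.43% at NanogBiD summits. Leaving out 1 library at a time gave 4292 (without Oct4BiD) to 10783 (without Sox2BiD) members and promoter shares of 10.7% (without Oct4BiD) to 15.8% (without native Nr5a2). The median distance ranged from 94.0 to 123 bp, the octamer share from 4.42% to 4.95% at native Oct4 and from 7.61% to 8.0% at Oct4BiD summits, and the NANOG motif share from 1.38% to 1.61% at native Nanog and from 2.63% to 2.84% at NanogBiD summits. The causes were not tested. Under each setting the octamer share was higher at Oct4BiD than at native Oct4 summits where both libraries were used. Peaks were called at each library's own depth, and a missing peak does not show that a factor was absent.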
